A study of Mus musculus with 12 samples.

Results

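Medulloblastomas (MBs) of XRCC4/p53-deficient mice were compared with granule neural progenitors (GNPs), the cell lineage of the cerebellum from which SHH-type medulloblastoma is known to arise. The comparison took every sample labelled as MB (8 tumors, 1 per mouse) and every sample labelled as cerebellar granule progenitor cells (2 mice), which is 10 of the 12 arrays of the study. The remaining 2 arrays, of whole cerebellum, entered the fit for the estimate of the spread and are given beside a result where they bear on it. Affymetrix mouse arrays were used for total RNA, and the unit is the log2 expression level after GCRMA normalization, on which a difference of 1 is a 2-fold change. Per the study's list of its tumors, 6 were Nestin-Cre p53-/- Xrcc4 c/- (MB_630, MB_794, MB_1187, MB_1197, MB_1207 and MB_1224) and 2 were Nestin-Cre p53-/- Xrcc4 c/c (MB_706 and MB_1206). Cre driven by the nestin promoter removes Xrcc4, a factor of non-homologous end joining, in neural progenitors, while p53 is missing in all cells of the animal. The GNPs (CGNP_2698 and CGNP_2705) and the cerebellum (WC_2646 and WC_2647) are described as coming from control animals matched in age and genotype. Neither the labels nor the methods give their individual genotypes or their ages. How the GNPs were isolated is not given in the sources used here. The labels call the MBs tumor tissue, whereas the methods list 6 of them (all but MB_706 and MB_1187) among cultured MB cells.

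GNPs divide in the outer layer of the early postnatal cerebellum in response to Sonic hedgehog (SHH) from Purkinje cells. SHH relieves the inhibition of the transducer SMO by its receptor PTCH1, and GLI transcription factors then switch on genes of the cell cycle such as those of the D-type cyclins. ATOH1 keeps the cells in the progenitor state. On leaving the cell cycle, the cells lose ATOH1, switch on neuronal genes, move inwards along glial fibres and become granule neurons. The comparison sets the tumors against the progenitors of their own lineage rather than against whole brain tissue.

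Of 17903 genes, 3348 were higher and 3344 were lower in MBs than in GNPs (limma, adjusted p under 0.05), which is 18.7% in each direction. The counts of called members given for lists below are to be read beside this share. The median difference over all genes was 0.0. A difference of at least 1 was found for 1870 of the higher and 1821 of the lower genes, and a difference of at least 3 for 297 and 326. All 8 MBs lay above both GNP samples for 21.2% of genes and below both for 20.5%. GCRMA gives unexpressed genes a value close to 2.2, and 5961 genes had a mean within 0.5 of this floor in both groups. Where either group lies at the floor, a level below it cannot be seen. Such differences are given as "at least", for the probe sets used. Between arrays, Pearson's r over genes was 0.972 to 0.992 among the MBs, 0.994 between the 2 GNP samples and 0.895 to 0.921 between the groups. Tumor MB_706 had a 3′ to 5′ difference of 2.93 on the array's control transcripts, against 0.56 to 0.82 in the other MBs, 0.15 and 0.23 in the GNPs and 0.48 and 0.52 in the cerebellum. With only 2 GNP samples the spread rests mainly on the MBs, and leaving out CGNP_2698 or CGNP_2705 gave 2464 and 2407 higher genes. In RNA of a whole sample, fewer cells of a type and less RNA per cell cannot be told apart.

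**Figure D1:**
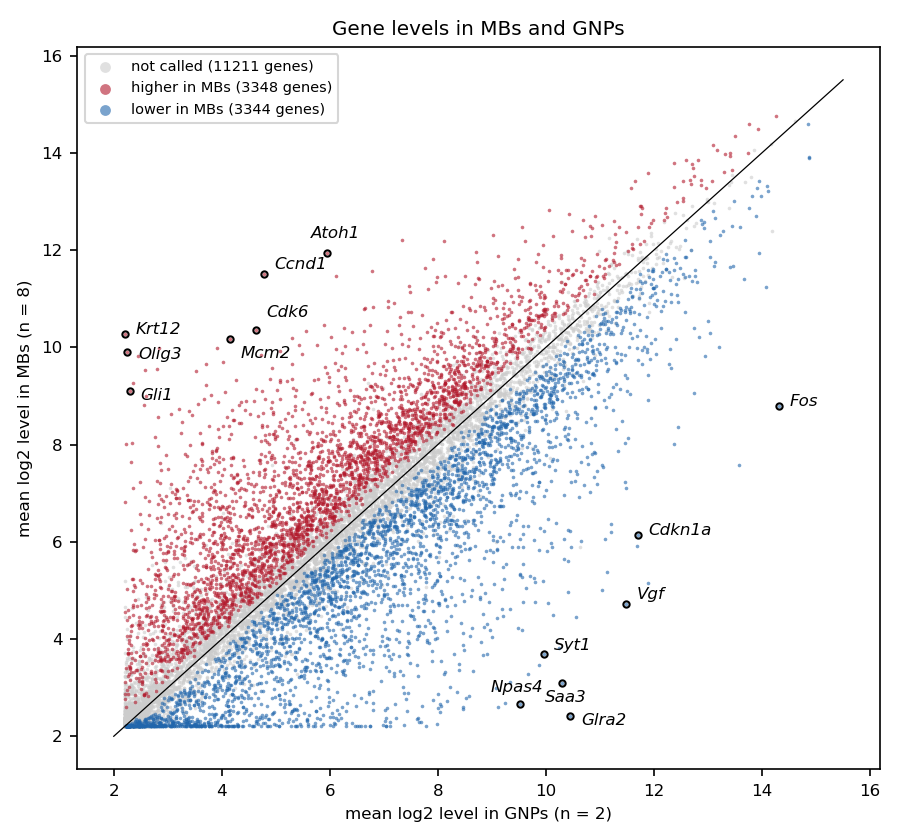
Mean log2 expression level of each of 17903 genes in the 2 GNP samples (horizontal axis) and the 8 MBs (vertical axis), with genes higher in MBs in red, lower in blue and not called in grey, a line of equal level and 14 genes named. Krt12, Olig3 and Gli1 sit at the floor in GNPs and over 8 in every MB, Ccnd1 and Mcm2 sit below 5 in GNPs, and Glra2, Npas4 and Saa3 sit below 4 in the MBs.

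The largest rises were found for Krt12, a cornea-type keratin, Olig3, a transcription factor of the rhombic lip where granule cells originate, and Sox18, a transcription factor best known from endothelium. Krt12 ranged from 9.76 to 11.50 in the MBs (median 10.12) and stood at 2.2 and 2.22 in the GNPs, a difference of at least 8.06 (SE 0.39, adjusted p = 2.49e-07). Olig3 had levels of 9.53 to 10.53 (median 9.87) in the MBs and of 2.2 and 2.31 in the GNPs, a difference of at least 7.64 (SE 0.25). Sox18 had levels of 8.78 to 10.87 in the MBs against 2.51 and 2.39. In all 3 the groups were far apart and the MBs varied by less than 2.1 among themselves. The other genes among the 15 largest rises were Tbata, Sfrp2, Mymx, Gli1, Shisa2, Ccnd1, Sowaha, Lhx2, Gsg1l, Mcm2, Atoh1 and C1qb. They hold a secreted WNT antagonist (Sfrp2), a muscle fusion peptide (Mymx), a complement component made by microglia (C1qb) and a subunit of the replicative helicase (Mcm2). The smallest difference among the 15 was 5.99.

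The largest falls included genes of neurons, of muscle and of the acute phase. Glra2, a subunit of the glycine receptor, stood at 2.2 to 2.87 in the MBs and at 10.16 and 10.75 in the GNPs, a difference of at least 8.04 in size (SE 0.28, adjusted p = 2.27e-08). Npas4, a transcription factor induced by neuronal activity, had 2.2 to 3.62 (median 2.50) against 9.48 and 9.54. Saa3, an acute-phase protein, had 2.7 to 3.30 against 9.75 and 10.83. These 3 genes were low in the cerebellum too (2.57 and 3.5, 2.97 and 2.92, 3.17 and 3.17), so that the GNP samples stood above both other groups. Others among the 15 largest falls were the neuropeptide precursors Vgf and Pnoc, the neurofilament gene Nefl, the synaptic vesicle calcium sensor Syt1, the neurotrophin Bdnf, the muscle proteins Tnnc2 and Neb, and Rps4l, Sowahb, Nap1l3, Caly and Lin7a. Syt1, for example, had 3.18 to 4.40 in the MBs, 9.95 and 9.97 in the GNPs and 8.94 and 9.12 in the cerebellum.

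The label of the GNP samples was checked against genes of the lineage. Zic1, a transcription factor of granule cells, stood at 13.95 and 13.65, Neurod1, which drives granule cell differentiation, at 13.83 and 13.68, and the progenitor factors Atoh1 and Barhl1 at 6.04 and 5.87 and at 8.21 and 7.74. Atoh1 was near the floor in the cerebellum (2.81 and 2.7). Mki67, which marks dividing cells, stood at 8.90 and 9.14 in the GNPs and at 2.25 and 2.33 in the cerebellum. In contrast, the SHH target Gli1 was at the floor in both GNP samples (2.39 and 2.2) and below the cerebellum (3.61 and 3.40; adjusted p of GNPs against cerebellum = 0.0359), and Ccnd1, the cyclin D1 gene that SHH switches on, stood at 4.76 and 4.8 against 7.62 and 6.99. Some markers of other cells were present as well. Gad1 of inhibitory neurons stood at 10.12 and Eomes of unipolar brush cells at 10.03 (means of the 2 GNP samples). Gfap and Aqp4 of astroglia stood at 9.02 and 9.20, and the collagen gene Col3a1 at 10.19. Gad1 and Eomes were the only 2 of the 6 measured markers of their list with a GNP mean over 5. Of the astroglial markers 10 of 10 were over 5, and of the mesenchymal markers 7 of 10. The GNP samples thus held the granule lineage with dividing cells, without a detectable Gli1 level, and together with RNA of some markers of other cell types. The part of these other cells in each result was not tested.

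Genes of the SHH pathway were higher in the MBs as a group, with 8 of 14 measured members higher and none lower, and a median difference of 1.37. Of the members that did not pass, 1 had all 8 MBs below both GNP samples. The count of lower members was 1 with quantile normalization, and without MB_1187 or MB_1206. Gli1 (chromosome 10:127329882-127341579, GRCm38.p6), the transcription factor that is itself a target of the pathway, ranged from 8.65 to 9.91 in the MBs (median 8.92) against 2.39 and 2.2 in the GNPs. All MBs lay over 6 above both GNP samples, and the difference was at least 6.80 (SE 0.29, adjusted p = 1.18e-07). Gli2 (chromosome 1:118834061-119054405), the main activator downstream of SMO, had 10.96 to 11.77 (median 11.52) against 5.68 and 6.56, a difference of 5.34 (SE 0.24, adjusted p = 1.63e-07). Smo, the transducer, rose by a smaller amount, from 4.34 and 4.19 to between 5.49 and 6.52 (1.72, SE 0.25). Ptch1, the receptor and a target of GLI1, did not pass the test over all tumors (0.99, SE 0.60, adjusted p = 0.251). Its level was 7.38 to 8.08 in 7 MBs and 5.33 in tumor MB_1206, against 6.56 and 6.26 in the GNPs, so that 1 tumor lay below both GNP samples and the others above. Without tumor MB_1206 the difference was 1.29 and passed (adjusted p = 0.000922). Among members chosen after their values were seen, the co-receptors Boc and Gas1 and the ciliary regulator Kif7 rose by 1.31, 1.42 and 1.98, and Hhip, a decoy receptor induced by the pathway, by 2.93. The ligand gene Shh (0.01), the co-receptor Cdon (0.01), Sufu (0.28) and Gli3 (0.31) did not pass.

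Transcription factors of the granule lineage showed no common direction, with 6 of 20 higher, 5 lower and a median of 0.08. Of all genes 18.7% were called in each direction. Atoh1 (chromosome 6:64729125-64731245) rose from 6.04 and 5.87 in the GNPs to between 11.13 and 12.55 in the MBs (median 11.99), a difference of 6.0 (SE 0.30, adjusted p = 3.25e-07). Olig3 and the LIM-homeobox gene Lhx2 were at the floor in GNPs and over 8 in every MB. Barhl1, a homeobox gene of migrating granule precursors, rose by 1.72 (adjusted p = 0.0063), a call that was lost without CGNP_2705 (1.48, adjusted p = 0.0788). Of the factors of later steps, Neurod2, which acts in maturing granule neurons, had 3.86 to 4.78 in the MBs against 6.58 and 6.51 (-2.26, adjusted p = 6e-05). Neurod1 was high in both groups and lower in the MBs (12.27 to 13.42, difference -0.89, adjusted p = 0.0195), a call lost without CGNP_2698 (adjusted p = 0.135) or CGNP_2705 (0.081). Zic4 fell by 1.59, whereas Zic1 (-0.29, adjusted p = 0.0601) and Pax6 (-1.09, adjusted p = 0.116) did not pass. Zic1 passed with quantile normalization (-0.47, adjusted p = 0.0058), with arrays shifted to the same median (-0.29, 0.0279) and without CGNP_2705 (-0.45, 0.0373). Pax6 passed without tumor MB_706 (-0.86, adjusted p = 0.0219), in which it stood at 4.76 against 5.99 to 7.0 in the other MBs.

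**Figure D2:**
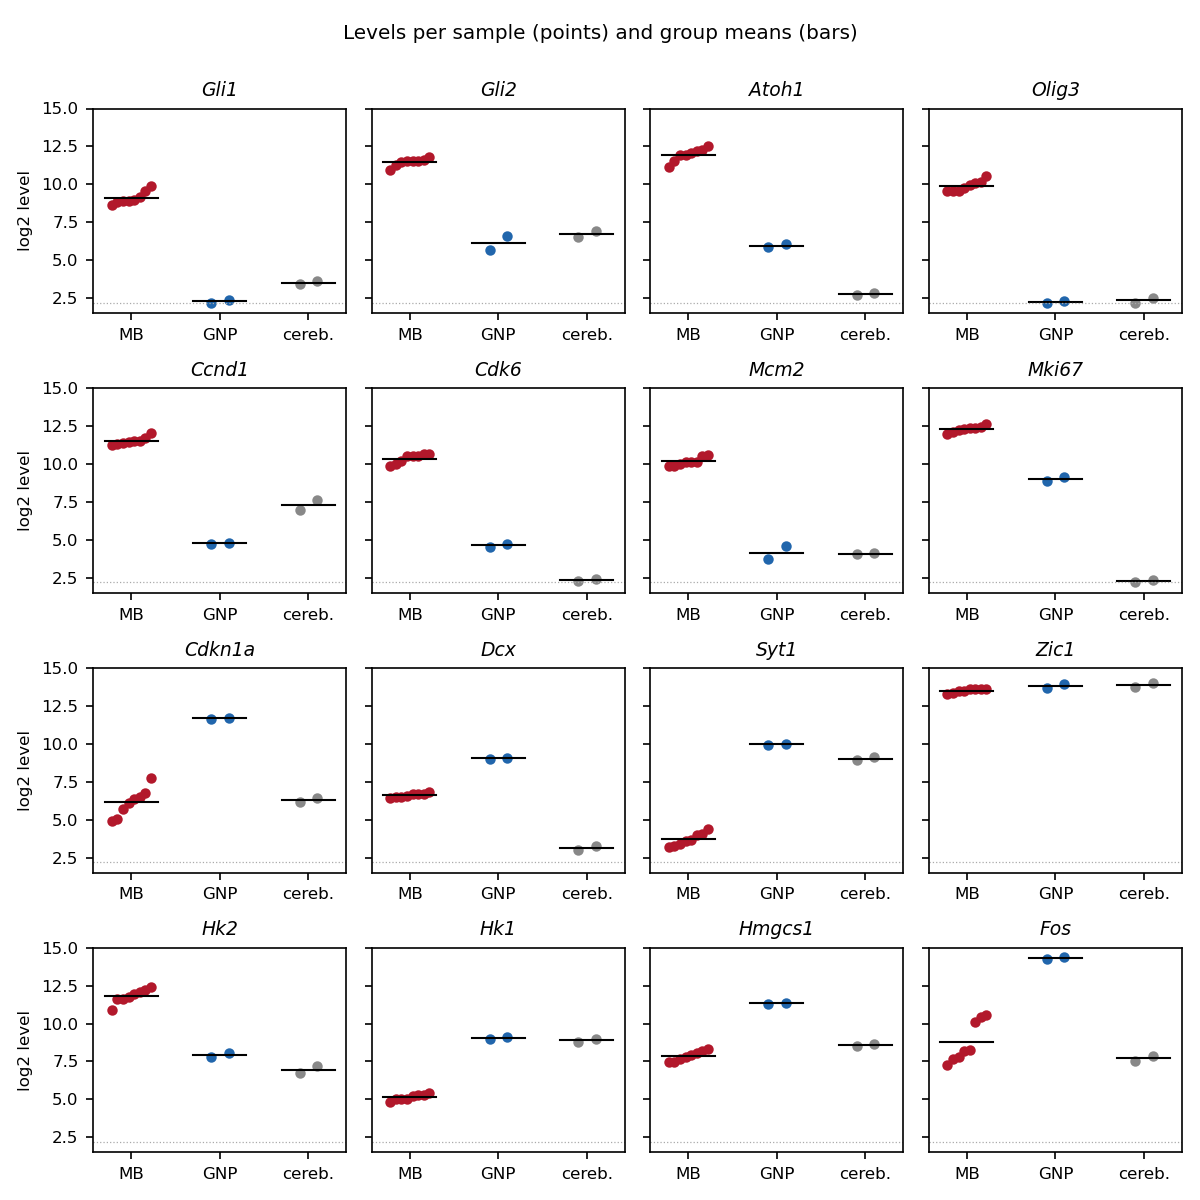
Log2 expression level of 16 genes in every sample, in 1 panel per gene, with the 8 MBs, the 2 GNP samples and the 2 cerebellum samples side by side, bars at the group means and a dotted line at the floor of 2.2. The points of the MBs lie above both GNP points for Gli1, Gli2, Atoh1, Olig3, Ccnd1, Cdk6, Mcm2, Mki67 and Hk2, and below both for Cdkn1a, Dcx, Syt1, Hk1, Hmgcs1, Fos and, by a difference that did not pass, Zic1.

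Genes of granule neuron differentiation were lower in the MBs, with 17 of 24 measured members lower, 1 higher and a median of -1.97. Dcx, a microtubule protein of migrating young neurons, had 6.44 to 6.84 in the MBs and 9.01 and 9.06 in the GNPs (-2.42, SE 0.10, adjusted p = 1.19e-07). Kcnd2, a potassium channel of granule neurons, had 3.33 to 6.44 (median 4.36) against 9.38 and 9.30 (-4.72, adjusted p = 0.00029), and Cntn2, an adhesion molecule of newly postmitotic granule cells, fell by 0.79 (-0.38 and not called with its probe set of highest signal, adjusted p = 0.118). For these genes no MB reached the level of a GNP sample. The member that rose was Rbfox3, which encodes the neuronal antigen NeuN. It had 9.16 to 9.89 in the MBs against 8.78 in both GNP samples and was higher by 0.75 (SE 0.15, adjusted p = 0.0029). Gabra6, a GABA receptor subunit of mature granule neurons, was 13.09 and 13.07 in the cerebellum, 3.57 and 4.26 in the GNPs and 2.24 to 4.69 in 7 MBs, but 8.78 in tumor MB_630. The mean level of the list was 7.63 in tumor MB_630, 6.01 to 6.86 in the other MBs and 8.37 and 8.44 in the GNPs. Purkinje cell markers, given further on, were also highest in tumor MB_630.

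Regulators of entry into the cell cycle were higher, with 14 of 18 measured members of the list of G1 cyclins, kinases, RB and E2F genes higher, none lower and a median of 2.17. Ccnd1 (chromosome 7:144929931-144939831) had 11.24 to 12.02 in the MBs (median 11.47) against 4.76 and 4.8 in the GNPs, a difference of 6.74 (SE 0.20, adjusted p = 9.88e-09). The MBs varied by less than 0.8. Cdk6, the kinase partner of D-type cyclins, had 9.84 to 10.65 (median 10.52) against 4.55 and 4.72, a difference of 5.73 (SE 0.21, adjusted p = 4.21e-08). Ccnd2, which encodes cyclin D2, was high in the GNPs already (9.25 and 8.99) and rose to between 11.23 and 12.76 (2.76, adjusted p = 0.000377). Of the E2F genes, E2f1 rose by 2.33, and E2f7, a repressor that E2F1 itself induces, by 3.96 (chosen after its values were seen). Rb1, the brake on E2F, was 6.65 to 6.95 in the MBs against 6.63 and 6.59 (0.13, adjusted p = 0.217; 0.41 and adjusted p = 0.0453 with its probe set of highest signal).

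The CDK inhibitors did not move as a group, with 1 of 7 higher, 3 lower and a median of -0.62 (-0.40 without CGNP_2705). Cdkn1a (chromosome 17:29090979-29100722), which encodes the p53 target p21, had 4.89 to 7.76 in the MBs (median 6.21) against 11.66 and 11.73 in the GNPs, a difference of -5.56 (SE 0.64, adjusted p = 8.28e-05). The cerebellum, at 6.14 and 6.43, lay within the range of the MBs, and GNPs and cerebellum differed as well (adjusted p = 0.000693). Cdkn2c, which encodes the CDK4/6 inhibitor p18, rose instead, from 6.65 and 6.98 to between 9.34 and 10.32 (2.86, adjusted p = 4.48e-05). Cdkn2d fell by 1.21, and Cdkn1b, which encodes p27, by 0.41, the latter call being lost without CGNP_2705 (adjusted p = 0.0615) and with its probe set of highest signal (-0.16, adjusted p = 0.328). Cdkn2a, which encodes p16 and ARF, was at the floor in the GNPs (2.2 and 2.2) and ranged from 2.29 to 4.76 in the MBs. It did not pass over all tumors (adjusted p = 0.0694) and passed without tumor MB_1206 (at least 1.72, adjusted p = 0.0194).

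DNA replication and mitosis held the most uniform change of all lists, with 26 of 27 replication genes and 28 of 28 mitosis genes higher in the MBs and medians of 3.35 and 3.36. Mcm2 had 9.85 to 10.61 in the MBs (median 10.14) against 3.71 and 4.60 in the GNPs (6.02, SE 0.25, adjusted p = 9e-08). Pole, the catalytic subunit of the leading-strand polymerase, had 8.80 to 9.44 against 3.67 and 3.74 (5.51, SE 0.16). The sliding clamp gene Pcna, high in both groups, rose by 1.78 (13.08 to 13.58 against 11.63 and 11.67). In mitosis, Mki67 rose by 3.29 (11.98 to 12.66 against 8.90 and 9.14), the kinesin gene Kif20a by 5.12, the kinetochore gene Nuf2 by 4.42 and the spindle kinase gene Aurka by 2.13. For each of these genes the groups were separated by more than the whole range within the MBs. Rrm1, a subunit of ribonucleotide reductase, was the replication gene that did not pass (0.85, chosen after its values were seen).

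The promoters of these genes were compared in sequence. E2F factors act on replication genes in G1 and S phase. The DREAM complex and, separately, B-MYB/FOXM1 complexes act on mitotic genes, whose promoters often hold CHR elements and CCAAT boxes. For 14133 of the tested genes, 17727 promoter windows of RefSeq (GRCm38.p6, 250 bases before to 50 after the start) were searched on both strands for 2 forms of the E2F site (TTCCCGC and TTTGGCG), for the CHR element (TTTGAA) and for CCAAT. The forms can overlap each other, as the E2F form and CCAAT do in Prim1 below. Either E2F form was present in 15 of 23 promoters of replication genes (65.2%) and 0 of 25 of mitosis genes, against 8.66% of all tested promoters. The CHR element was present in 18 of 25 promoters of mitosis genes (72%) and 8.7% of those of replication genes, against 13.3% of all. CCAAT stood in 72% and 69.6% of the promoters of the mitosis and the replication lists, against 37.3% of all. Over all calls, either E2F form was found in 14.7% of promoters of genes higher in MBs, 8.13% of genes lower and 6.9% of genes not called. For the CHR element these shares were 14.9%, 10.2% and 13.9%, and 25.9% among genes higher by 3 or more. The core of the GLI site (CCACCCA) was as frequent in higher (9.59%) as in lower genes (9.85%). A match is a description of the letters in the window, not evidence that a factor binds there. The 150 bases before the start of 3 replication genes (Cdc6, which loads the MCM helicase, Mcm6, a helicase subunit, and Prim1, the primase) and 3 mitosis genes (Cdk1, the mitotic kinase, Kif11, a spindle motor, and Prc1, a spindle midzone protein) are printed to show both arrangements. Capitals mark E2F forms in the first 3, CHR elements in the last 3, and CCAAT in all but Cdc6, whose stretch holds none, on either strand. The 6 genes were chosen after their values were seen, among replication genes with an E2F form and mitosis genes with a CHR element in this stretch. The E2F forms and CHR elements marked are thus a condition of the choice, not a result. The 6 genes rose by 5.51, 4.87, 3.71, 3.65, 3.55 and 3.40.
Cdc6 (chr11:98908001-98908150, plus strand): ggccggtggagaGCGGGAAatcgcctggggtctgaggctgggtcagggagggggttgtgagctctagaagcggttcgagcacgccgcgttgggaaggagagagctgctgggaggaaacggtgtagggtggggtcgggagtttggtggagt
Mcm6 (chr1:128359706-128359855, minus strand): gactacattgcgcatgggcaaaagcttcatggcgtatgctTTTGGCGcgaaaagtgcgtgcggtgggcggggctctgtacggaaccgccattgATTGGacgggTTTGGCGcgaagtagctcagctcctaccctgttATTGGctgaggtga
Prim1 (chr10:128015065-128015214, plus strand): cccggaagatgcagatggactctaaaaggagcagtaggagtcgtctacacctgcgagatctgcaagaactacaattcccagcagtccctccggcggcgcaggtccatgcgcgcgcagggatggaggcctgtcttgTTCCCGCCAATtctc
Cdk1 (chr10:69352913-69353062, minus strand): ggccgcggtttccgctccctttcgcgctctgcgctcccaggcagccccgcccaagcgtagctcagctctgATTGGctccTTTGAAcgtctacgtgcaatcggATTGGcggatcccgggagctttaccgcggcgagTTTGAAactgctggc
Kif11 (chr19:37376232-37376381, plus strand): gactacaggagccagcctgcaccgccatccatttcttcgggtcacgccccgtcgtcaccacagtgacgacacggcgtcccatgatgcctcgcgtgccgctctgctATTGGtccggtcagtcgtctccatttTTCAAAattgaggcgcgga
Prc1 (chr7:80294326-80294475, plus strand): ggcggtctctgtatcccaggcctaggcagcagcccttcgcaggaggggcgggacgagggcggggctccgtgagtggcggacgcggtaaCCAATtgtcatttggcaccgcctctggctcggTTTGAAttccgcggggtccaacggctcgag

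**Figure D3:**
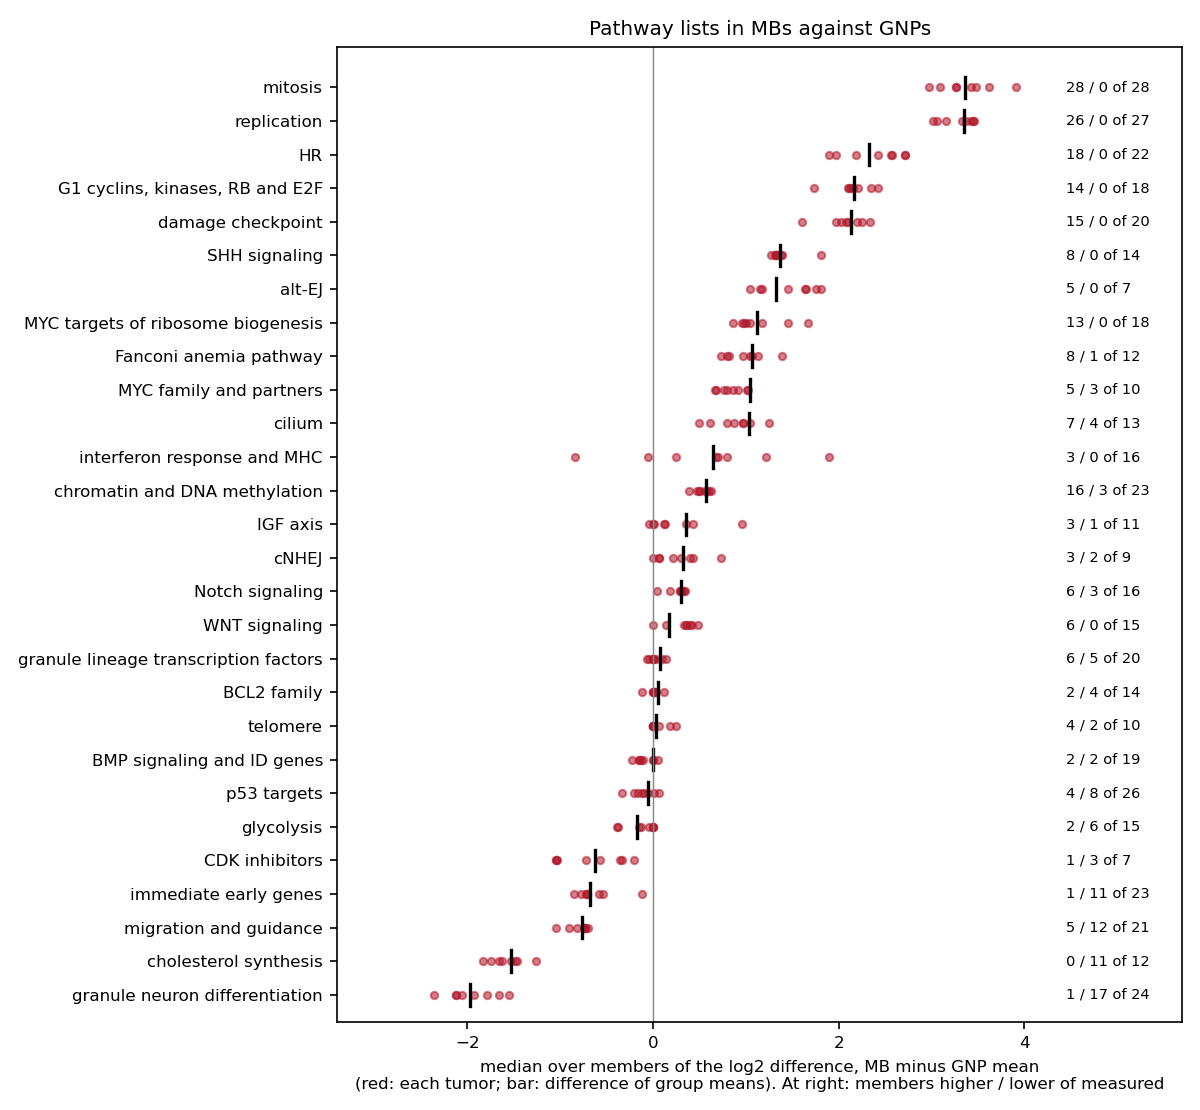
Median difference in log2 level between MBs and GNPs over the members of 28 pathway lists, with a bar for the difference of the group means, a red point for each of the 8 tumors against the GNP mean, and the counts of members higher and lower at the right. The replication and mitosis lists sit over 3 in the group means, and the granule neuron differentiation and cholesterol synthesis lists sit below -1.5.

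Of the MYC family and its partners, 5 of 10 were higher and 3 lower with a median of 1.04, and without CGNP_2698 the count of higher genes was 3. Mycn (chromosome 12:12936093-12941836), the MYC gene through which SHH acts on GNPs, had 7.4 to 9.46 in the MBs (median 8.19) against 5.93 and 5.78 (2.41, SE 0.40, adjusted p = 0.000921). Mycl rose by 2.07 and the common partner Max by 1.66. Myc (chromosome 15:61985341-61990361) varied most, from 7.34 to 11.47 in the MBs (SD 1.37), with 6.95 and 7.02 in the GNPs. All MBs lay above both GNP samples, while the difference of 2.19 did not pass (SE 0.93, adjusted p = 0.0967; 0.0439 with genes below a level of 5 left out). Per the study, all of these tumors but MB_1206 had a gain of Mycn, and MB_630, MB_794 and MB_1224 a gain of Myc. The part of these gains in the levels was not tested. Mlx, a partner of a related network that senses glucose, fell by 2.04, and the MYC antagonist Mxi1 by 1.58 (adjusted p = 0.0369, lost without CGNP_2698 at 0.156, and without CGNP_2705 at 0.168). Of the targets, 13 of 18 were higher, none lower, with a median of 1.12. Nop58, a core protein of small nucleolar particles, and the nucleolar GTPase gene Gnl3 both rose by 2.32, and Odc1, the first enzyme of polyamine synthesis, by 1.88.

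The targeted gene, Xrcc4 (chromosome 13:89848914-90089608), was low in every sample. It stood at 2.56, 2.68, 3.22, 2.73, 3.57 and 3.03 in the c/- tumors MB_1187, MB_1197, MB_1207, MB_1224, MB_630 and MB_794, at 2.44 and 3.19 in the c/c tumors MB_706 and MB_1206, at 3.57 and 4.19 in the GNPs and at 4.25 and 4.34 in the cerebellum. The difference from the GNPs of -0.95 passed (SE 0.29, adjusted p = 0.0249), but was lost without CGNP_2705 (-0.65, adjusted p = 0.281) and with all probe sets of the gene (-0.39, adjusted p = 0.315). Whether its probe sets lie in the deleted part of the gene was not analysed here, so the level does not check the deletion. The p53 gene was not analysed here.

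The factors of classical non-homologous end joining (cNHEJ) moved both ways, with 3 of 9 higher and 2 lower, Xrcc4 and Paxx (1 lower without CGNP_2705 and with all single-gene probe sets), and a median of 0.32 with Xrcc4 included. Xrcc5, which encodes the Ku80 subunit that binds DNA ends, had 8.70 to 9.29 in the MBs against 5.33 and 5.98 (3.39, SE 0.18, adjusted p = 4.21e-07), and Prkdc, the catalytic subunit of DNA-PK, rose by 1.69. Paxx, an accessory factor that binds Ku, fell from 7.41 and 7.56 to between 4.62 and 5.19 (-2.55, adjusted p = 1.75e-07). Lig4, the ligase that works with XRCC4, did not pass (0.07, 7.59 to 8.22 against 8.07 and 7.58), and Nhej1 was at the floor in all samples.

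Genes of homologous recombination (HR) were higher, with 18 of 22 measured members higher, none lower and a median of 2.33. Brca2, a central factor of this repair, had 8.18 to 9.35 in the MBs against 5.73 and 5.32 (3.35, SE 0.26, adjusted p = 6.23e-06). Rad54b, a translocase, had 6.74 to 7.65 against 2.7 and 2.26 (at least 4.75). Brca1 rose by 2.57 and varied with tumor MB_706, at 4.66 against 5.82 to 6.37 in the other MBs. Of the factors of alternative end joining (alt-EJ), 5 of 7 were higher with a median of 1.33. Parp1, the sensor of breaks, had 8.92 to 9.65 against 7.62 and 7.27 (1.74), the nuclease gene Fen1 rose by 2.31 and Lig1 by 2.26. Lig3 did not pass (0.12), though it did with its probe set of highest signal (0.43, adjusted p = 0.00826), and Polq, the polymerase that joins ends by microhomology, was near the floor in MBs and GNPs (2.34 to 2.98 against 2.34 and 2.32). In the Fanconi anemia pathway, which repairs crosslinks, 8 of 12 were higher and 1 lower with a median of 1.07, among them Fancd2 (at least 1.97).

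Of the damage checkpoint genes, 15 of 20 were higher, none lower, and the median was 2.13. The apical kinase genes Atm and Atr rose by 3.06 and 2.05, Chek2 by 4.37 (7.62 to 8.28 against 3.48 and 3.79) and Chek1 by 2.22. Cdc25b, the phosphatase that starts mitosis, rose by 5.0 (7.69 to 8.71 against 3.15 and 3.34). In contrast, the p53 targets showed no common direction, with 4 of 26 higher, 8 lower and a median of -0.05. The share of all genes called was 18.7% in each direction. Cdkn1a, described above, Plk2 (-2.38) and the cyclin G1 gene Ccng1 (-1.89, adjusted p = 6.72e-05) fell. Eda2r, a receptor of the TNF family, rose by 4.01 (7.42 to 8.38 against 4.48 and 3.34), and Xpc, the damage sensor of nucleotide excision repair, by 2.2. Mdm2, the ubiquitin ligase of p53, did not pass (-0.12), and with its probe set of highest signal the sign was the opposite (0.63, adjusted p = 0.0078). In the BCL2 family, 2 of 14 were higher and 4 lower with a median of 0.05 (of all genes, 18.7% in each direction). Without CGNP_2705, 2 were lower, and with the probe set of highest signal 4 were higher and 2 lower. The effector gene Bok rose by 2.98 (10.41 to 11.12 against 7.53 and 7.87), the survival gene Bcl2l1 fell by 0.92, a fall not seen with its probe set of highest signal (-0.03), and Bcl2 (-0.09) and Mcl1 (0.11) did not pass. With its probe set of highest signal Mcl1 passed (0.66, adjusted p = 0.0111).

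Chromatin and DNA methylation genes were mostly higher (16 of 23, with 3 lower and a median of 0.57). Hmgb2, a DNA-bending protein of dividing cells, had 10.36 to 10.74 in the MBs against 5.89 and 5.88 (4.58, SE 0.08, adjusted p = 2e-10). Uhrf1, which brings DNMT1 to replicated DNA, rose by 4.11, the methyltransferase gene Dnmt3b by 2.34 and Ezh2, the catalytic subunit of PRC2, by 2.15. The genes that fell include Actl6b (-2.24), the neuronal subunit of the BAF remodelling complex, and the BAF ATPase gene Smarca2 (-2.22). Of the telomere genes, 4 of 10 were higher and 2 lower (1 lower without CGNP_2698 or CGNP_2705) with a median of 0.03. Dkc1, which stabilises telomerase RNA, rose by 1.91 and the shelterin gene Tinf2 by 1.51, while Tert was near the floor in MBs and GNPs (2.24 to 2.82 against 2.34 and 2.30).

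In the Notch list 6 of 16 were higher and 3 lower (without CGNP_2698, 1 lower) with a median of 0.30. The inhibitory ligand gene Dll3 rose by 4.36 (7.94 to 10.08 against 4.44 and 5.05, adjusted p = 0.000237), and the target gene Hes1 by 3.45 (5.65 to 7.78 against 2.95 and 3.35). Notch1 (0.42) and Hes5 (-0.55) did not pass, the latter passing without MB_794 (-0.66, adjusted p = 0.0403). In the WNT list 6 of 15 were higher and none lower with a median of 0.17 (0.03 without MB_630). Sfrp2 had 8.86 to 10.93 against 2.63 and 2.52 (at least 6.95), whereas Axin2 and Lef1, targets that report canonical WNT activity, did not pass (-0.38 and 0.09). The BMP and ID list, of signals that oppose SHH in GNPs, had 2 of 19 higher (1 without CGNP_2698 or CGNP_2705), 2 lower and a median of 0.0. Bmp4 fell by at least 2.80 (2.2 to 3.18 against 5.30 and 5.26), Bmpr1a rose by 0.70, and Id1 (-0.15) and Id2 (-0.75) did not pass. In the IGF list, of growth factors that act with SHH, 3 of 11 were higher and 1 lower (2 lower without CGNP_2698) with a median of 0.36. Leaving out single samples moved this median between 0.05 (without MB_1224) and 0.57 (without MB_706). The docking protein gene Irs1 had 12.42 to 13.12 against 10.11 and 10.01 (2.77, SE 0.16, adjusted p = 8.48e-07). Igf1r rose by 1.18, Igf2r fell by 1.66 and Igf2 did not pass (0.36). Beside the counts of these lists stands the 18.7% of all genes called in each direction.

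Genes of migration and axon guidance were mostly lower, with 12 of 21 lower, 5 higher and a median of -0.77. Unc5c, a netrin receptor that keeps granule cells in the cerebellum, had 3.27 to 6.77 in the MBs (median 4.68) against 9.71 and 9.44 (-4.8, adjusted p = 0.000321). Sema6a, which guides the inward turn of granule cells, fell by 1.75, and Bdnf, which attracts them inwards, by 6.21. Cxcr4, the receptor that holds progenitors beneath the meninges, rose instead (9.91 to 11.22 against 6.95 and 6.36, difference 4.16, SE 0.31, adjusted p = 5.24e-06). Its ligand gene Cxcl12, chosen after its values were seen, fell by 2.36. The netrin receptor gene Dcc rose by 1.35.

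In glycolysis, 6 of 15 genes were lower and 2 higher with a median of -0.17 (-0.05 without MB_1207), and without CGNP_2705 the count of lower genes was 3. The 2 forms of hexokinase, the enzyme of the first step, changed in opposite directions. Hk2 (chromosome 6:82725025-82774454), the form induced by SHH in GNPs, had 10.92 to 12.38 in the MBs against 7.76 and 8.04 (3.91, SE 0.32, adjusted p = 9.64e-06). Hk1 (chromosome 10:62268855-62379920), the common form of neurons, had 4.82 to 5.42 against 9.09 and 9.00 (-3.91, SE 0.14, adjusted p = 3.34e-08). Neither set of values overlapped. The neuronal enolase gene Eno2 fell by 4.01 (2.52 to 7.09 against 7.81 and 8.54), a call lost without CGNP_2705 (-3.65, adjusted p = 0.085), and Ldha (-0.17) and Pkm (0.42) did not pass. Cholesterol synthesis was lower throughout, with 11 of 12 genes lower and a median of -1.53. Hmgcs1, the enzyme before the rate-limiting reductase, had 7.46 to 8.31 against 11.38 and 11.28 (-3.47, SE 0.21, adjusted p = 1.37e-06) and 8.54 and 8.62 in the cerebellum. Cyp51, the demethylase of lanosterol, had 6.67 to 7.31 against a mean of 9.96 in the GNPs (-3.01) and 5.95 and 6.07 in the cerebellum. GNPs and cerebellum, in a contrast that shares the GNP samples, also differed in both genes (adjusted p = 4.6e-05 and 1.65e-07). Sqle fell by 1.45, a call lost without CGNP_2698 (adjusted p = 0.123) or CGNP_2705 (0.129). In the list of the primary cilium, on which SHH signaling depends, 7 of 13 were higher and 4 lower with a median of 1.03, with Cep290 (2.55) and the retrograde motor gene Dync2h1 (2.28) higher and the kinesin genes Kif3b (-0.94) and Kif3a (-0.72) lower. Kif3a was not called with its probe set of highest signal (-0.20).

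Immediate early genes, which are induced within minutes by activity or stress, included 11 of 23 lower and 1 higher, with a median of -0.68. Fos had 7.27 to 10.55 in the MBs (median 8.24), 14.27 and 14.37 in the GNPs and 7.56 and 7.88 in the cerebellum. The difference from the GNPs was -5.54 (SE 0.91, adjusted p = 0.000859), and GNPs and cerebellum differed too (adjusted p = 0.00185). In Npas4, given above, the GNPs likewise stood above both other groups, and so they did in Nr4a1 (-3.68 between MBs and GNPs) and Atf3 (-3.77), which were chosen after their values were seen. Egr1 went the other way, with 9.00 to 12.47 in the MBs, 4.94 and 5.67 in the GNPs and 9.78 and 9.71 in the cerebellum (4.88, adjusted p = 0.0015). Jun did not pass (0.23). Among genes near the floor in all MBs and over 5 in both GNP samples, 3 inflammatory genes chosen after their values were seen were Il6 (2.2 in all MBs, 6.03 and 7.05 in the GNPs), the neutrophil chemokine gene Cxcl2 (2.2 to 2.57 against 5.69 and 6.50) and Acod1, an enzyme of activated macrophages (2.2 to 2.31 against 5.90 and 6.93). All 3 were at the floor in the cerebellum as well. Whether handling of the GNP samples moved these genes was not tested.

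Markers of other cell types differed between the groups in both directions. Microglia and macrophage markers were higher in the MBs, with 8 of 11 higher, none lower and a median of 2.58. C1qa, a complement component, had 8.74 to 10.30 in the MBs against 2.82 and 4.60 (5.95, SE 0.54, adjusted p = 1.81e-05), C1qb rose by 5.99, the chemokine receptor gene Cx3cr1 by 1.74 and the CSF1 receptor gene Csf1r by 2.59 (lost without CGNP_2698, 1.92, adjusted p = 0.0654). The mean level of the list was 5.88 to 6.96 in the MBs, 3.77 and 4.57 in the GNPs and 4.69 and 4.91 in the cerebellum. Markers of inhibitory interneurons and unipolar brush cells were lower (5 of 6, median -1.67), with Gad1 at 2.53 to 7.52 against 10.11 and 10.14 and Eomes at 3.76 to 6.40 against 10.05 and 10.01. Astroglial markers were lower for 4 of 10, among them Gfap (-2.90) and Aqp4 (-3.72, not called with its probe set of highest signal). Mesenchymal markers were lower for 7 of 10, with a median of -1.94, and the count was 3 without CGNP_2698 or CGNP_2705 and 4 without any of the tumors MB_1197, MB_1206, MB_1207, MB_1224, MB_706 or MB_794. Col1a1, a fibroblast collagen, had 2.37 to 2.84 against 5.62 and 6.46, whereas Col3a1 overlapped between the groups (4.37 to 10.30 against 9.95 and 10.43, adjusted p = 0.041, lost without either GNP sample). The oligodendrocyte list held Pdgfra and Cspg4 of oligodendrocyte precursors, higher by 2.53 and 2.18, and the myelin gene Mag, lower by 2.54. The calls of Cspg4 and Mag were lost without CGNP_2698 (adjusted p = 0.0522) and without CGNP_2705 (0.0881), respectively. Of the endothelial markers Vwf rose (2.57), and the defining genes Pecam1 and Cdh5 were near the floor in both groups. The hemoglobin gene Hba-a1 was at the floor in MBs and GNPs, and the choroid plexus gene Ttr varied from 2.62 to 12.10 in the MBs with 12.76 and 8.50 in the GNPs. Of the neural stem cell markers 4 of 7 were higher with a median of 0.79, and 1 and 2 were called higher without CGNP_2698 and CGNP_2705.

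**Figure D4:**
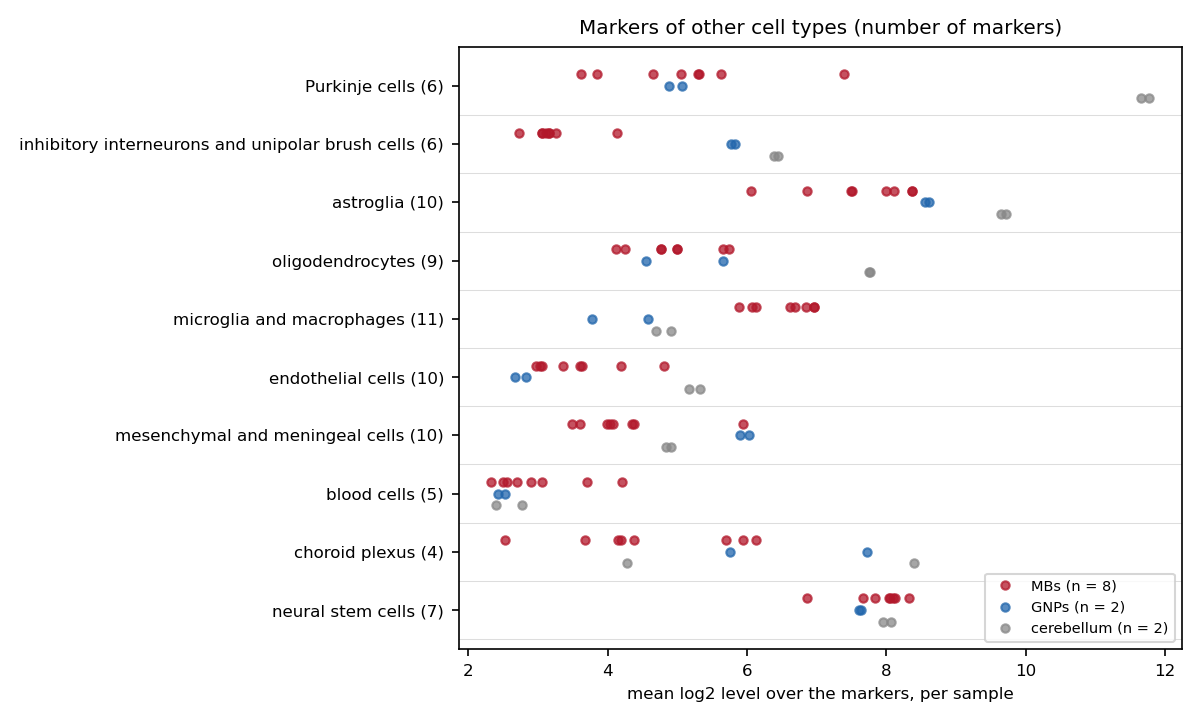
Mean log2 level over the members of 10 marker lists (rows) in each MB (red), GNP (blue) and cerebellum (grey) sample. The MBs sit above both GNP samples for microglia and macrophages and for endothelial cells (2.97 to 4.81 against 2.83 and 2.67). They sit below both for astroglia and for inhibitory interneurons with unipolar brush cells. Tumor MB_630 is the MB with the highest Purkinje (7.39) and mesenchymal (5.94) levels.

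Tumor MB_630 stood apart from the other MBs in these markers. Its mean level was 7.39 for the Purkinje list (3.61 to 5.62 in the others), 5.94 for the mesenchymal list (3.49 to 4.38) and 4.13 for interneurons and unipolar brush cells (2.72 to 3.26). Calb1, a calcium-binding protein of Purkinje cells, was 5.7 in tumor MB_630 and 2.26 to 3.09 in the other MBs. The 2 Purkinje markers that were called lower, Calb1 (-2.78) and Pcp4 (-2.83), were both lost without either GNP sample. Without the tumors MB_630 and MB_706, an alternative chosen after seeing the data, the list of granule neuron differentiation had a median of -2.04 and the replication list one of 3.44.

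Of the interferon response and MHC genes, 3 of 16 were higher and none lower, with a median of 0.65. Of all genes 18.7% were called higher, and the count is near that share. The interferon regulator gene Irf1 (1.98), the RNA sensor gene Ifih1 (2.68) and the MHC class I light chain gene B2m (1.54) were called, and none of the 3 remained so without CGNP_2698 (adjusted p = 0.108, 0.463 and 0.0782). The mean level of the list was 4.76 in CGNP_2698 and 6.07 in CGNP_2705, and 4.40 to 7.12 in the MBs, a span that covers both.

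Since the study asks about rearranged chromosomes, the difference in level was also described by chromosome, over genes with a mean over 5 in MBs or GNPs and centred on the median of all of them. Chromosome 13 was the lowest, with a median of -0.425 over 319 genes and all 8 tumors below 0. Of its genes 13.8% were called higher and 34.8% lower. On the other chromosomes these shares were 21.6% to 40.7% and 18.8% to 39.4%. Only the share called higher thus lay outside the range of the others. The tumors were not alike, since MB_1207 (-0.032) and MB_630 (-0.044) were close to 0 and the other 6 lay between -0.338 and -0.730. Chromosome 6 was the highest (0.251 over 457 genes, all 8 tumors above 0), with 0.557 in tumor MB_1207 and 0.452 in tumor MB_1187. All 8 tumors on the same side of 0 were found elsewhere too. They lay below it for chromosomes 1, 10, 16, 19 and X (median of X -0.214), and above it for 3, 4, 9, 17 and 18. Over genes above a level of 7, this no longer held for chromosomes 1, 3, 9, 10 and 17. At that level all 8 tumors lay below 0 for chromosomes 7 and 14 too. Ccnd2, Atoh1, Hk2 and Mcm2, described above, lie on chromosome 6, and Ptch1 and Xrcc4 on chromosome 13. Lower values in single tumors were found for chromosome 12 in tumor MB_1207 (-0.410), and for chromosomes 19 and 10 in tumor MB_1206 (-0.542 and -0.332). Chromosome 7 stood at -0.278 in tumor MB_630. Chromosome 15 stood at -0.321, -0.299 and -0.197 in the tumors MB_794, MB_630 and MB_1224, and at -0.052 to 0.037 in the others. Per the study, these tumors had a gain of Myc, which lies on chromosome 15. The part of this gain was not tested. No test was run on these medians, since genes of a chromosome are not replicates. DNA copy number was not analysed here.

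**Figure D5:**
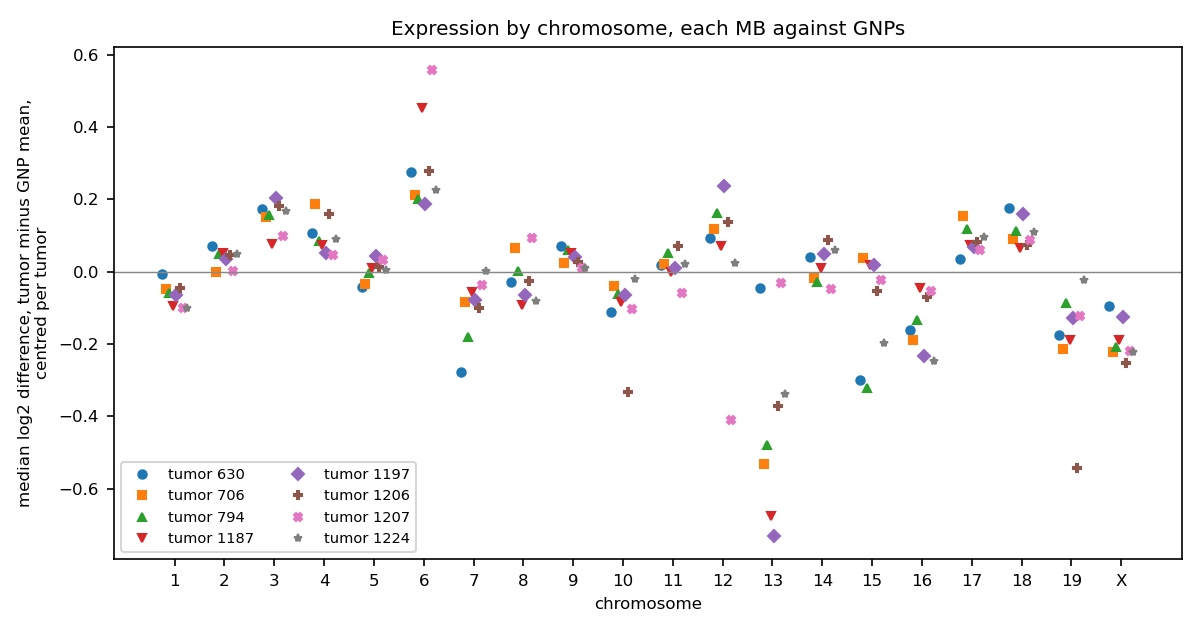
Median difference in log2 level between each MB and the GNP mean over the genes of each chromosome, centred on the median of all genes used, with 1 point per tumor. Chromosome 13 has all tumors below 0, of which 2 are close to it, and chromosome 6 has all 8 above 0. Chromosomes 1, 10, 16, 19 and X also have all 8 below 0, and 3, 4, 9, 17 and 18 all 8 above. Over genes above a level of 7, not drawn, this does not hold for 1, 3, 9, 10 and 17.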

How the data were processed

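Log2 values of 12 Affymetrix mouse expression arrays were used as deposited, 1 value per probe set and array; per the study's methods, the authors made them from the raw files with the affy library in R. GCRMA corrects for background binding by probe sequence and leaves low values at a floor. Depth does not apply to arrays, and their number limits the precision. Of 45101 probe sets, 64 were array controls, 34945 paired with 1 gene in GEO's platform annotation, 932 with several and 9160 with none. Gene values were averages over probe sets assigned to that gene only, excluding those with the suffixes s or x. This excluded 290 genes and gave 17903, of which 17747 matched RefSeq (GRCm38.p6). No filter on level was applied.

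Groups were taken from the sample titles. limma 3.58.1 in R 4.3.3 (lmFit, eBayes, two-sided, tested on simulated data) was fitted to MBs, GNPs and cerebellum together (residual df 9, prior df 0.4728), and p-values were adjusted by Benjamini-Hochberg across the 17903 genes, with calls at 0.05. Adjusted p-values come from this fit unless a left-out sample or another setting is named beside them, in which case they come from limma under that setting. The methods' unpaired t-test was run as an alternative.

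The 38 lists (584 genes, 542 measured, 42 not analysed here) were written from textbook knowledge, and they, the comparison and the tests were chosen with earlier results of these data known. Named genes are the 15 largest rises and falls whose MB and GNP values are separate (without predicted models), fixed anchor genes of each list, the 2 strongest called changes in either direction per list, and the study's repair factors and oncogenes. No test was run on lists, chromosomes or promoters. Promoter windows from RefSeq were found for 14133 genes and not for 3770. Summaries and figures were made in Python 3.11.15 with pandas 2.3.3, numpy 2.4.6 and matplotlib 3.10.9. The alternatives were other rules for probe sets, quantile normalization, a shift to the same median, MBs and GNPs alone, a trended spread, array weights, a filter on level, a minimum change of 1, subsets of tumors and leaving out each sample. The alternative without the tumors MB_630 and MB_706 was added after seeing the data.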

Additional observations from a re-analysis of the deposited data

Results flagged for a closer look

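Of 173 values tested for a tumor far from the other 7, 20 were found. For normal and independent values, chance alone gives about 1 in 20 of all tested. Genes near the floor and lists that hold the single genes tested do not meet these conditions, so this rate is not a yardstick here. The part of a technical cause was not tested for any of them.

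Tumor MB_630 held 8 of these values. Gabra6 of mature granule neurons stood at 8.78 (2.24 to 4.69 in the other MBs), Gad1 of inhibitory neurons at 7.52 (2.53 to 4.81) and Calb1 of Purkinje cells at 5.7 (2.26 to 3.09). The mean level of the mesenchymal list was 5.94 (3.49 to 4.38), that of interneurons and unipolar brush cells 4.13 (2.72 to 3.26) and that of glycolysis 7.50 (6.99 to 7.17). Gsg1l (9.18 against 9.84 to 10.34) and the chromatin list (7.28 against 7.44 to 7.58) were lower in this tumor.

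In tumor MB_1206, the SHH receptor gene Ptch1 stood at 5.33 (7.38 to 8.08 in the other MBs) and Sowaha at 7.21 (8.85 to 10.13). The medians of chromosomes 19 and 10 were -0.54 (-0.21 to -0.02 in the others) and -0.33 (-0.11 to -0.02). Ptch1 lies on chromosome 13 and Sowaha on chromosome 11.

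In tumor MB_706, which had the largest 3′ to 5′ difference of the arrays (2.93), Pax6 was 4.76 (5.99 to 7.0), Brca1 4.66 (5.82 to 6.37) and Mcl1 9.71 (10.18 to 10.56). In tumor MB_1207, the stem cell gene Sox2 was 7.84 (8.89 to 9.71), the neural stem cell list 6.86 (7.66 to 8.33) and the median of chromosome 12 -0.41 (0.02 to 0.24). In tumor MB_1187, the mean of the CDK inhibitor list was 7.95 (7.17 to 7.51) and that of the cilium list 7.0 (6.59 to 6.72).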

How the results depend on the processing

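Over 26 alternatives, the counts of 3348 higher and 3344 lower genes stayed within 1.5 times, except for a minimum change of 1, with 833 and 870 (GNPs against cerebellum 534 and 658, from 2664 and 2443). That setting also gave 17.9% and 7.25% of promoters with an E2F form for higher and lower genes (from 14.7% and 8.13%) and 21.6% with the CHR element for higher genes (from 14.9%, and 14.7% to 16.3% when leaving out each sample). Of 196 named genes, 160 were called, and 129 kept their call or lack of it in all alternatives. The minimum change of 1 ended 56 calls, and leaving out CGNP_2698 or CGNP_2705 ended 21 and 23. Mdm2 was the gene that reversed, at 0.63 with the probe set of highest signal. With that probe set the list medians were 2.01 for SHH signaling, 0.20 for lineage transcription factors, 1.49 for MYC targets, 2.50 for G1 genes, 3.80 for replication, 4.13 for mitosis, 2.71 for HR, 1.40 for the Fanconi pathway, 0.96 for chromatin, 0.36 for WNT, -1.03 for migration, -2.16 for cholesterol synthesis, 1.69 for Purkinje cells (from 0.69) and -4.09 for interneurons and unipolar brush cells (from -1.67). With all probe sets of a single gene, they were 0.87 for chromatin, 0.34 for telomere genes (from 0.03) and -1.45 for interneurons. In the tumors listed as cultured the chromatin median was 0.49, and without the tumors MB_630 and MB_706 the BMP median was -0.15. The interferon median was -0.19 without CGNP_2698 and 1.10 without CGNP_2705. Without CGNP_2698, 3 lineage transcription factors were called lower (from 5) and 3 MYC family genes higher (from 5). Over genes above a level of 7, chromosome medians moved to -0.005 for 1, 0.090 for 3, 0.152 for 4, 0.006 for 9, 0.036 for 10, -0.056 for 14 and -0.398 for X, with sign changes for 10 and 14. The causes were not tested. List medians were not computed for settings that filter genes or change only the test. No paired analysis was possible because the groups share no replicate numbers, each sample being named by its own mouse. The values come from 2 GNP mice, and probe sets near the floor cannot show how low a gene is.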

Other observations

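Genes that were over 5 in every sample of 1 group and near the floor in every sample of the other numbered 17 for the MBs and 54 for the GNPs. The genes named here were chosen after their values were seen. On in the MBs and near the floor in the GNPs were Haspin, a kinase of mitotic chromosomes (6.63 to 7.50 against 2.36 and 2.35), Chtf18, which loads the sliding clamp (5.90 to 6.99 against 2.48 and 2.48), Dctd, an enzyme of nucleotide synthesis (7.27 to 8.68 against 2.25 and 2.42), and Cbln4, a synaptic organiser (6.73 to 9.60 against 2.23 and 2.23). H2-Eb1, an MHC class II chain of antigen-presenting cells, and Mgl2, a lectin of macrophages, were in this set too, at 5.39 to 8.52 and 6.62 to 8.29 in the MBs.

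Near the floor in the MBs and over 5 in the GNPs were Gabra5, a GABA receptor subunit (2.25 to 2.62 against 7.48 and 7.89), Cartpt, a neuropeptide precursor (2.2 in all MBs against 6.98 and 7.09), Galntl6, a glycosyltransferase (2.2 in all MBs against 7.82 and 7.74), Tfap2b, a transcription factor of inhibitory interneuron precursors (2.25 to 2.44 against 7.4 and 6.83), and Ch25h, an enzyme induced by interferon (2.21 to 2.26 against 7.03 and 6.93). In the cerebellum, Gabra5, Cartpt, Galntl6 and Ch25h were at the floor as well, whereas Tfap2b stood at 7.81 and 7.65.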
